A study of Mus musculus with 6 samples.

Results

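The 10 genes described here encode plasma membrane transporters that bring amino acids into growing cells: Slc3a2, Slc7a5, Slc7a1, Slc7a3, Slc7a6, Slc38a1, Slc38a2, Slc1a4, Slc1a5 and Slc6a9. They were chosen by name, as 10 of the 18193 genes with an array probe set annotated to a single gene, and all 20 of their probe sets were read. RNA of 6 neural stem cell lines of the mouse, which the labels call independent, was hybridised to Affymetrix expression arrays, each line to its own. By their labels 3 of the lines are FoxO null and 3 are wild type. The labels give no treatment, time or age, name neither the deleted FoxO genes nor the method, and give neither the part of the brain nor the animals that the lines came from. FoxO genes encode forkhead transcription factors that are switched off by insulin and growth factor signalling.

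Amino acids do not cross the cell membrane freely, so a dividing cell depends on carrier proteins for the building blocks of protein and nucleotides. Sodium-coupled carriers such as SNAT2 concentrate glutamine and other small neutral amino acids inside the cell, and ASCT2 is a sodium-dependent exchanger of such amino acids. The exchanger LAT1 can then trade such amino acids for leucine and other large ones, and leucine inside the cell is a signal that activates the growth kinase complex mTORC1. Several of these transporter genes are induced by the transcription factor ATF4 when amino acids run short. In neural tissue, glycine and glutamate carriers also clear transmitters from around synapses.

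All values below are MAS5 signals, a linear intensity per probe set that the authors had scaled, so that the trimmed mean was 100 on each of the 6 arrays. Array medians lay between 25.5 and 32.8, and no step of the labels tells whether arrays were run together. The groups are called by their labels throughout, because most FoxO signals themselves went against them. Of 9 probe sets for Foxo1, Foxo3 and Foxo4, 8 had a positive difference, while 46.5% of all probe sets had a difference below 0. In 5 of the 9, every line labelled FoxO-null was higher than any labelled wild-type. This held for 1023 of the 12665 genes tested, each read from a single probe set after a filter on low signals. The share over all probe sets was not counted. The 8 include 1456529_at of Foxo1, whose groups overlapped and which was above the highest bacterial control probe set on 0 of 6 arrays. The Foxo3 probe set 1434832_at, for example, had signals of 384, 423 and 454 in lines labelled FoxO-null and 207, 249.6 and 224 in lines labelled wild-type. The deleted part of each gene is not given in the sources used here, so where these probes lie relative to it was not checked. Every direction below rests on the labels as given. All 10 neural stem cell markers lay above the highest bacterial control probe set on all 6 arrays. Markers of microglia (1 of 8), endothelium (0 of 7) and fibroblasts or mural cells (1 of 7) mostly did not. Of the astrocyte markers 7 of 8 did, of the oligodendrocyte markers 5 of 7 and of the neuron markers 7 of 8. The summed signal of the oligodendrocyte markers was 7710.8 to 8215.5 in lines labelled FoxO-null and 4248.3 to 5522 in lines labelled wild-type, and that of the astrocyte markers was 5673.9 to 6482 in lines labelled FoxO-null and 4022 to 5275.4 in lines labelled wild-type. The part of these marker differences in the transporter signals was not tested, and in bulk RNA a different share of cells of one type and a different amount of RNA per cell cannot be told apart.

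Promoter sequence was at hand for 6 of the 10 genes, in 10 windows of 300 bases that run from 250 before to 50 after an annotated start (RefSeq, build GRCm38.p6). Slc7a5, Slc7a3, Slc38a1 and Slc1a5 have no entry. The windows were searched on both strands for TGATGNAA, the core of the amino acid response element that ATF4 binds, for the FoxO motif TGTTTAC and for the E-box CACGTG, to which Myc binds. The core of the amino acid response element was found in 1 of the 10 windows, that of Slc1a4, against 3.97% of all 32851 mouse promoter windows in the same table. No window of the 6 genes held TGTTTAC, against 3.65% of all windows, or CACGTG, against 7.15%. Shown first is the stretch of Slc1a4 that holds the match, beside the same motif in Asns and Slc7a11, for which an ATF4 element near the start is well known. Capitals mark the match, all 3 genes lie on the minus strand, and each sequence reads 5′ to 3′ along the gene. The windows are chr11:20332698-20332729 for Slc1a4, chr6:7693213-7693244 for Asns and chr3:50443641-50443691 for Slc7a11.
Slc1a4: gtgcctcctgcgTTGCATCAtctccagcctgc
Asns: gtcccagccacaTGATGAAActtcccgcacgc
Slc7a11: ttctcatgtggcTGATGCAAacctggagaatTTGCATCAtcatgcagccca
In Slc1a4 the motif reads in reverse and its first base lies at -4 with the start site as 0, so it spans the start, whereas in Asns it begins at -23 and in Slc7a11 at -66 and -47.

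The whole windows of Slc3a2, the shared heavy chain, and of Slc38a2, the gene below with the smallest error in its difference, are given because neither holds any of the 3 motifs. Both genes lie on the minus strand, at chr19:8713848-8714147 for Slc3a2 and chr15:96699679-96699978 for Slc38a2, and with no motif to mark they are in lower case. The known amino acid response element of Slc38a2 lies in its first intron, outside such a window.
Slc3a2: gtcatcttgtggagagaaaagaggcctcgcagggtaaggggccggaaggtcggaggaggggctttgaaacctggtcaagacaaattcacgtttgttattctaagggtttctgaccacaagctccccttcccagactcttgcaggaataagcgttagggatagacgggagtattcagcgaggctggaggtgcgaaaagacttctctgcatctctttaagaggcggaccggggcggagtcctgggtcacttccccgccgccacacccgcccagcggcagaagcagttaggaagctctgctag
Slc38a2: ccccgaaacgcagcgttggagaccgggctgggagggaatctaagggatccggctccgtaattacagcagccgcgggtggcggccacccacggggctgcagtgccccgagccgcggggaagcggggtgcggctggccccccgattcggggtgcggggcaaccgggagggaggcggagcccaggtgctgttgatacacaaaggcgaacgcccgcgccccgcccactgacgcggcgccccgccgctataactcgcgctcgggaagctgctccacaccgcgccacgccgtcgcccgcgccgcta
The GC content of these windows was 56% for Slc3a2, 73% for Slc38a2 and 65% for Slc1a4.

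Whether loss of FoxO goes with altered transporter expression was asked by comparing the 3 lines labelled FoxO-null with the 3 labelled wild-type. No difference in the 10 transporter genes passed the test: 0 of 10 passed limma at an adjusted p under 0.05 over 12665 genes, and 0 of 10 had an unadjusted limma p under 0.05. Among all genes tested 0.0395% passed the adjusted threshold and 10.2% the unadjusted one. Slc38a2 and Slc1a5, both carriers of glutamine and small neutral amino acids, had lower signals in every line labelled FoxO-null than in any line labelled wild-type, which also held for 7.96% of all genes. The difference was below 0 for 7 of the 10 genes, against 48.3% of all genes. That count was 9 when the arrays were centred on their medians and 6 when they were scaled to the hybridisation controls, RNAs added in fixed amounts before hybridisation. The median log2 difference over all genes tested also moved, to -0.06 with that centring and 0.08 with that scaling. The array of wild-type line 1 had a signal of 211 for the 5′ probe set of 18S ribosomal RNA, against 23.5 to 38.9 on the others. Without that line 0 of the 10 genes passed and 9 had a difference below 0, and the part of the 18S signal in the values of that line was not tested. The median difference over the 10 genes was -0.19 on the log2 scale, beside 0.01 over all genes tested. It was -0.08 without wild-type line 2, -0.09 without FoxO-null line 2 and -0.11 when scaled to the hybridisation controls. The medians over all genes tested were 0.005, 0.01 and 0.08 in the same order. At the level of probe sets, 15 of 20 had a difference below 0, against 46.5% of all probe sets, and 3 did not overlap with FoxO-null lower, against 5.67% of all probe sets. None of the 20 passed the adjusted threshold in a fit of all 45037 probe sets, where 0.00222% did, and 0 of 20 had an unadjusted limma p under 0.05, against 7.24% of all probe sets.

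**Figure D1:**
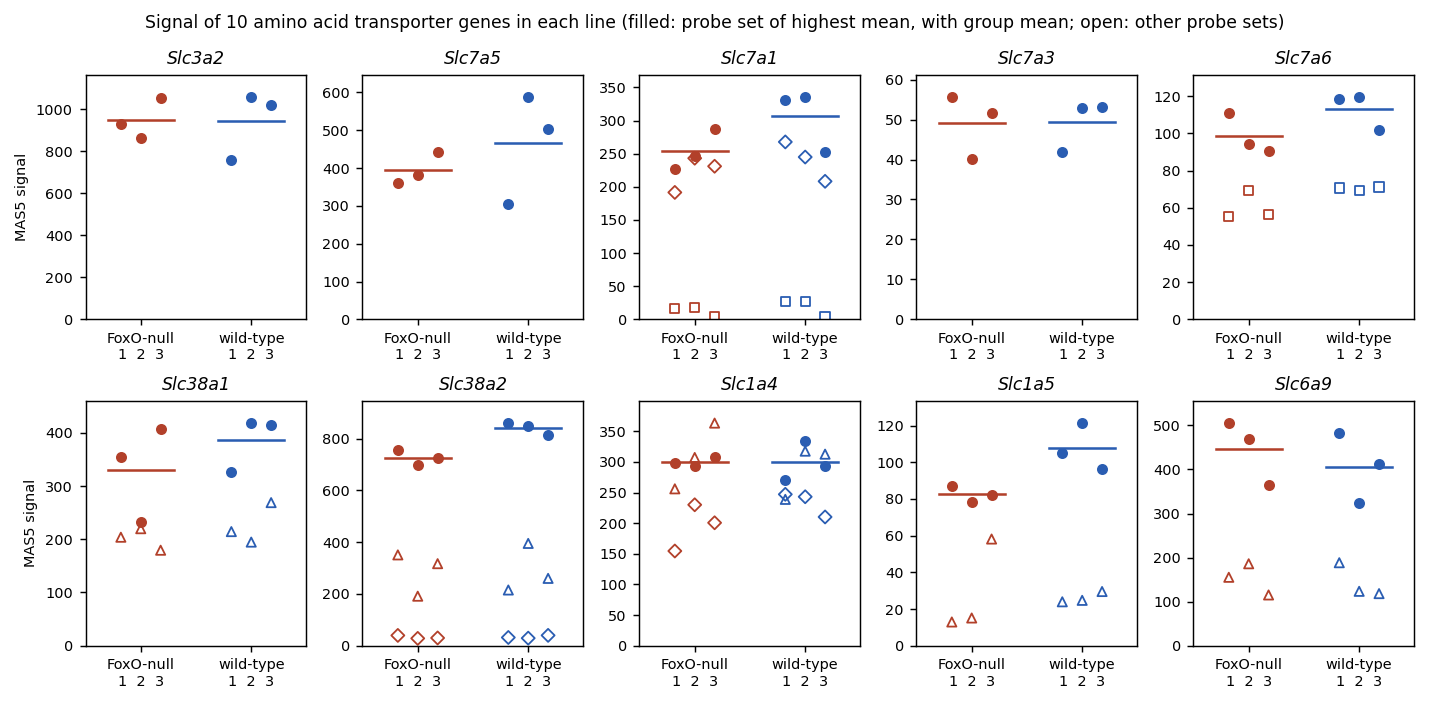
MAS5 signal (y axis, from 0) of the 10 transporter genes in each line, FoxO-null left and wild-type right. Filled points are the probe set of highest mean with a bar at the group mean, and open points are the other probe sets; only Slc38a2, Slc1a5 and the second probe set of Slc7a6 keep the groups apart.

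Slc3a2 encodes the heavy chain 4F2hc (CD98), which carries the light chains of the LAT, y+LAT and xCT transporters to the cell surface. Its probe set 1425364_a_at had signals of 929, 862 and 1054 in lines labelled FoxO-null, against 759, 1059.6 and 1021 in lines labelled wild-type. Wild-type line 1 was the lowest of all 6 and wild-type line 2 the highest, so the groups overlapped fully. The group means were 948 ± 97.0 for the FoxO-null label and 947 ± 164 for the wild-type label (SD, n = 3 each). The log2 difference was 0.01 ± 0.14 (SE), with a 95% interval of fold change of 0.814 to 1.25 and a limma adjusted p of 0.987. These arrays therefore bound any difference in the heavy chain to about that interval, and do not show that the groups are alike.

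Slc7a5 encodes LAT1, the light chain that exchanges glutamine and other amino acids for leucine and large neutral amino acids. Its probe set 1418326_at read 362, 382 and 443 in lines labelled FoxO-null and 305, 589 and 504 in lines labelled wild-type. The lines labelled FoxO-null lay inside the range of the wild-type ones, whose SD of 145 was above the 42.0 of the lines labelled FoxO-null. The means were 396 for the FoxO-null label and 466 for the wild-type label, and the log2 difference was -0.19 ± 0.20 (SE; 95% interval -0.63 to 0.26, limma adjusted p = 0.805). The value turned on single lines, being -0.46 without wild-type line 1 (limma adjusted p = 0.286) and 0.0064 without wild-type line 2. The highest of the 6 signals of Slc7a5 was 1.93 times the lowest, and that of Slc38a1 1.80 times. These were the only 2 of the 10 genes whose ratio exceeded 1.64, the median over all genes tested.

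Slc7a6 encodes y+LAT2, another light chain of Slc3a2, which exchanges cationic for neutral amino acids. Its brighter probe set 1460541_at read 111, 94.3 and 90.7 in lines labelled FoxO-null and 118, 119.6 and 101.6 in lines labelled wild-type. FoxO-null line 1 lay above wild-type line 3, so the groups overlapped, and the log2 difference was -0.19 ± 0.17 (SE, limma adjusted p = 0.754). The dimmer 1433467_at read 55.4, 69.153 and 56.5 in lines labelled FoxO-null and 70.6, 69.197 and 71.1 in lines labelled wild-type. Its groups were apart, but only by the small gap between line 2 of each group.

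Slc7a1 encodes CAT-1, the widespread carrier of arginine and lysine, and Slc7a3 encodes CAT-3, a related cationic carrier found largely in brain. For Slc7a1, probe set 1454991_at gave 227, 247 and 287 in lines labelled FoxO-null and 331, 336 and 252 in lines labelled wild-type. Wild-type lines 1 and 2 were the highest, and wild-type line 3 lay among the lines labelled FoxO-null. The means were 254 ± 30.5 for the FoxO-null label and 306 ± 46.9 for the wild-type label (SD, n = 3 each), with a log2 difference of -0.26 ± 0.15 (SE; 95% interval -0.59 to 0.07, limma adjusted p = 0.594). The difference was -0.39 without wild-type line 3, which passed limma at the unadjusted threshold of 0.05 but not after adjustment (limma adjusted p = 0.390). The second probe set, 1454992_at, had a log2 difference of -0.11 ± 0.15 (SE). The third, 1421533_at, was above the bacterial controls on 2 of 6 arrays and was the single one of the 20 that failed the filter on low signals. For Slc7a3, probe set 1417022_at gave 55.7, 40.2 and 51.8 in lines labelled FoxO-null and 41.8, 53.0 and 53.2 in lines labelled wild-type. One line of each group was low, FoxO-null line 2 and wild-type line 1, and the groups overlapped. Its log2 difference was -0.0067 ± 0.24 (SE; 95% interval -0.54 to 0.53, limma adjusted p = 0.996), one of the wider intervals among the 10 genes.

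**Figure D2:**
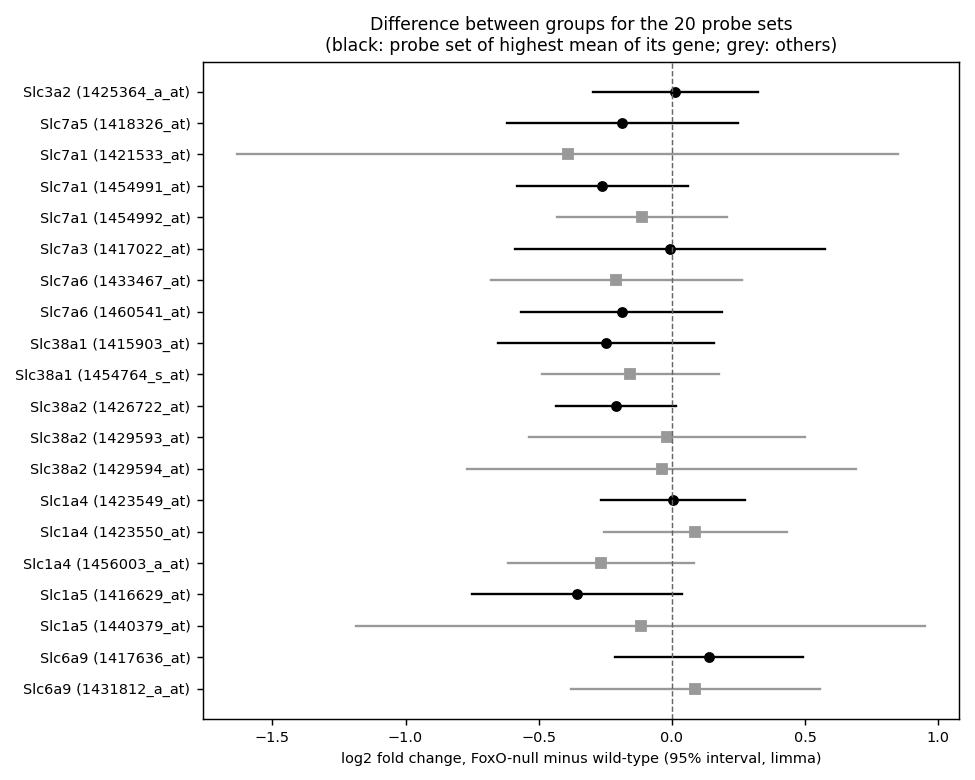
Difference on the log2 scale for each of the 20 probe sets (x axis, FoxO-null minus wild-type), with the 95% interval of the limma fit over all probe sets without a filter. Black circles are the probe set of highest mean of each gene and grey squares the others; every interval includes 0.

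Slc38a2 encodes SNAT2, a sodium-coupled carrier of glutamine, alanine and serine that is known to be induced when amino acids are withdrawn. Its probe set 1426722_at read 755, 698 and 727 in lines labelled FoxO-null and 860.4, 850 and 815 in lines labelled wild-type. All 3 lines labelled FoxO-null lay below all 3 labelled wild-type, with means of 727 ± 28.3 for the FoxO-null label and 842 ± 23.9 for the wild-type label (SD, n = 3 each). The fold was 0.864 (95% interval 0.740 to 1.01), a log2 difference of -0.21 ± 0.10 (SE), with an unadjusted limma p of 0.0626 and an adjusted p of 0.516. The log2 difference was -0.13 when arrays were scaled to the hybridisation controls, where the median over all genes tested was 0.08. It was -0.09 when the probe sets were averaged. The other probe sets of Slc38a2 did not show the gap. Probe set 1429593_at read 351, 191 and 317 in lines labelled FoxO-null and 215, 395 and 260.1 in lines labelled wild-type, a log2 difference of -0.02 ± 0.24 (SE). The weak 1429594_at had a log2 difference of -0.04 ± 0.34 (SE). With 3 lines in each group, the smallest two-sided p that an exact permutation test allows is 0.1.

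Slc38a1 encodes SNAT1, which also takes up glutamine and is prominent in neurons and their precursors. Probe set 1415903_at read 354, 232 and 406 in lines labelled FoxO-null and 326, 418 and 415 in lines labelled wild-type. FoxO-null line 2 stood below all the others, and the remaining lines of the groups overlapped. The log2 difference was -0.25 ± 0.19 (SE; 95% interval -0.67 to 0.17, limma adjusted p = 0.692), and it was -0.02 without FoxO-null line 2 and -0.41 without FoxO-null line 3. In the second probe set, 1454764_s_at, the same line was not low: it read 204, 219.8 and 179 in lines labelled FoxO-null and 214, 195 and 269 in lines labelled wild-type.

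Slc1a5 encodes ASCT2, a sodium-dependent exchanger of glutamine and small neutral amino acids. Its probe set 1416629_at read 87.2, 78.2 and 82.1 in lines labelled FoxO-null and 105.1, 121.4 and 96.4 in lines labelled wild-type. The groups did not overlap, and the means were 82.5 ± 4.5 for the FoxO-null label and 108 ± 12.7 for the wild-type label (SD, n = 3 each). The fold was 0.781 (95% interval 0.598 to 1.02), a log2 difference of -0.36 ± 0.18 (SE), the largest in size of the 10 genes, with an unadjusted limma p of 0.0672 and an adjusted p of 0.529. The second probe set, 1440379_at, read 12.9, 15.1 and 58.2 in lines labelled FoxO-null and 23.9, 24.7 and 29.5 in lines labelled wild-type. It was above the bacterial controls on 4 of 6 arrays, and FoxO-null line 3 was the highest of all.

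Slc1a4 encodes ASCT1, a relative of ASCT2 that exchanges alanine, serine and cysteine. Probe set 1423549_at read 298, 292 and 308 in lines labelled FoxO-null and 271, 334 and 293 in lines labelled wild-type. The lines labelled FoxO-null lay within the wild-type range, with a log2 difference of 0.0047 ± 0.13 (SE; 95% interval -0.27 to 0.28, limma adjusted p = 0.994). Its 3 probe sets differed in sign, with 0.09 ± 0.16 (SE) for 1423550_at and -0.27 ± 0.16 (SE) for 1456003_a_at. Probe set 1456003_a_at read 155, 229.98 and 201 in lines labelled FoxO-null and 247, 243 and 210.1 in lines labelled wild-type, so FoxO-null line 2 kept the groups from separating.

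Slc6a9 encodes GLYT1, the sodium- and chloride-coupled glycine carrier of glia. Probe set 1417636_at read 505, 468 and 366 in lines labelled FoxO-null and 482, 324 and 414 in lines labelled wild-type. The 2 groups interleaved, with means of 446 ± 72.4 for the FoxO-null label and 406 ± 79.5 for the wild-type label (SD, n = 3 each). The log2 difference was 0.14 ± 0.17 (SE; 95% interval -0.23 to 0.50, limma adjusted p = 0.824), and the second probe set, 1431812_a_at, gave 0.09 ± 0.21 (SE).

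The proteins that pair with the Slc3a2 heavy chain were set against it across the 6 lines, with exact permutation tests over all 720 pairings. Of 6 partner genes 5 passed the filter on low signals, and Slc7a8 did not. For Slc7a5, Pearson's r with Slc3a2 was 0.887 (two-sided exact permutation p = 0.0222, adjusted p = 0.0810 over the 5 partners) and Spearman's rho was 0.886 (p = 0.0333, adjusted p = 0.0833, exact permutation). Both genes were lowest in wild-type line 1. The relation had the same sign within the lines labelled FoxO-null (r = 0.799) and within those labelled wild-type (r = 0.992), at 3 lines each, and r was 0.824 without FoxO-null line 2 and wild-type line 1, the lines farthest from the median of Slc3a2. Neither coefficient passed after adjustment. The hybridisation controls moved the same way across the arrays. Their geometric mean was 1558, 1575 and 1962 on arrays of lines labelled FoxO-null and 1550.0, 1962 and 1855 on arrays of lines labelled wild-type, and its r was 0.880 with Slc3a2 and 0.872 with Slc7a5. When each array was scaled to these controls, an alternative added after seeing the data, r between Slc3a2 and Slc7a5 was 0.401 (exact permutation p = 0.432). After quantile normalization it was 0.873 (exact permutation p = 0.0264, adjusted p = 0.111), and rho was 0.771 (exact permutation p = 0.103). The controls then had an r of 0.659 with Slc3a2 and 0.789 with Slc7a5. As deposited, the r with the controls was above 0.7 for 4 of the 10 transporter genes and for 7.27% of all genes.

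Slc7a11, the cystine and glutamate exchanger xCT, ran opposite to its heavy chain, with r = -0.807 (exact permutation p = 0.0486, adjusted p = 0.0810) and rho = -0.943 (exact permutation p = 0.0167, adjusted p = 0.0833). Its signals were 46.5, 71.9 and 26.7 in lines labelled FoxO-null and 63.1, 16.4 and 44.8 in lines labelled wild-type. After scaling to the hybridisation controls r was -0.09 (exact permutation p = 0.911). For y+LAT1, encoded by Slc7a7, r was 0.820 (exact permutation p = 0.0458, adjusted p = 0.0810, rho = 0.429) but -0.966 without FoxO-null line 2 and wild-type line 1, so it rested on those lines. Scaled to the hybridisation controls, this r was higher, at 0.957 (exact permutation p = 0.0222, adjusted p = 0.111). There it was 0.088 without FoxO-null line 1 and wild-type line 1. The Slc7a7 probe set was above the bacterial controls on 3 of 6 arrays and that of Slc7a11 on 5 of 6, so both relations include signals at background. For Slc7a6 r was -0.268 (exact permutation p = 0.626), and for Slc7a10, which encodes Asc-1, it was 0.139 (exact permutation p = 0.768). Among 12006 genes ranked by r with Slc3a2 over the 6 arrays, the most alike were Galnt16 (r = 0.995), Rgs17 (r = 0.990) and Erf (r = 0.987), given as a description of 6 arrays that share the scaling. Of these, Rgs17 was above the bacterial controls on only 4 of 6 arrays.

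**Figure D3:**
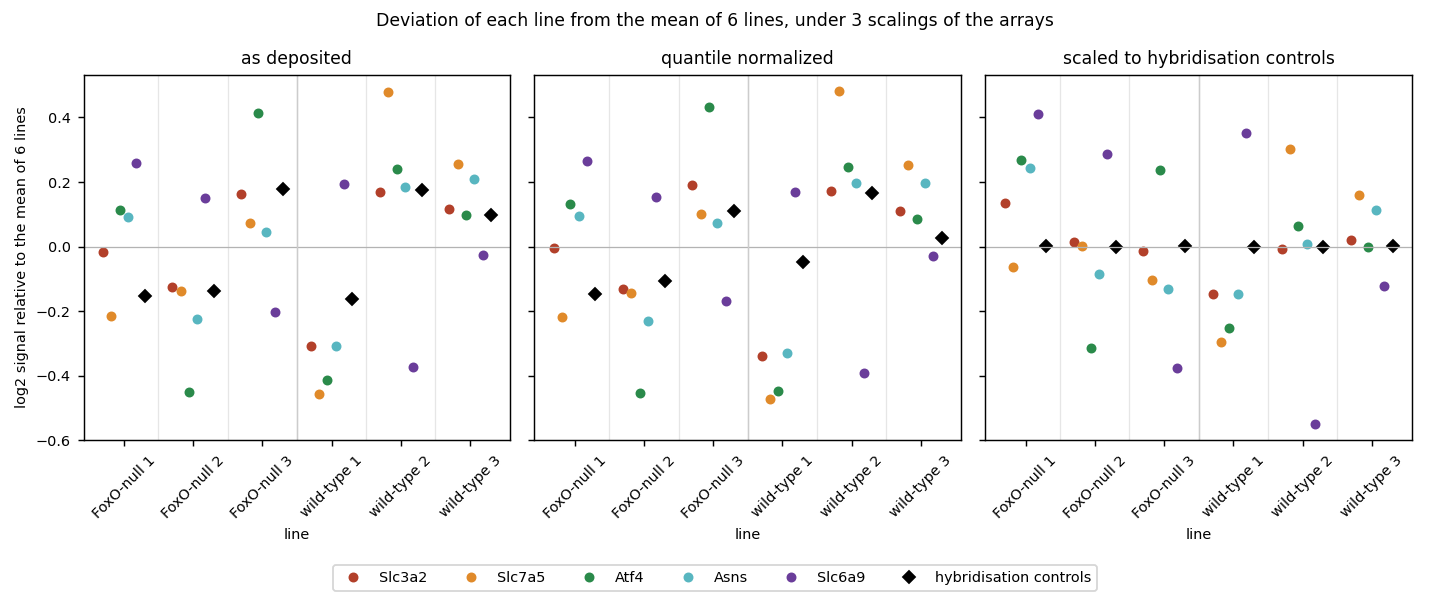
Log2 signal of each line relative to the mean of the 6 lines (y axis) for Slc3a2, Slc7a5, Atf4, Asns, Slc6a9 and the geometric mean of the hybridisation controls (diamonds), as deposited, quantile normalized and scaled to those controls. As deposited, Slc3a2, Slc7a5 and the controls lie above 0 in FoxO-null line 3 and wild-type lines 2 and 3 and below 0 in the other lines; scaled to the controls, r between Slc3a2 and Slc7a5 is 0.401.

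Other amino acid transporters, most but not all of the plasma membrane, were taken as a list of 34 genes, of which 22 were tested. None passed at the adjusted threshold. At an unadjusted limma p under 0.05, 3 were higher and 0 lower, against 10.2% of all genes tested in either direction. The median log2 difference was 0.24, beside -0.19 for the 10 genes of growing cells and 0.01 for all genes. Of the 22, 15 had a difference above 0, against 6554 of all 12665 genes tested, whereas 3 of the 10 did. The members of this list with the smallest p were the glial glutamate carriers. Slc1a3, which encodes GLAST, read 4672, 4627 and 4636 in lines labelled FoxO-null and 3408, 3669.5 and 3629.5 in lines labelled wild-type. All 3 lines labelled FoxO-null lay above the others, with a log2 difference of 0.38 ± 0.10 (SE, limma adjusted p = 0.230). Slc1a2, which encodes GLT-1, read 768, 684 and 498 in lines labelled FoxO-null and 484, 505 and 474 in lines labelled wild-type, a log2 difference of 0.39 ± 0.15 (SE, limma adjusted p = 0.407), and its groups overlapped. Both genes are also made by astrocytes, and the part of astrocyte content in their differences was not tested. The summed astrocyte markers, given above, did not overlap between the groups and were lower in lines labelled wild-type. Taken singly, 3 of the 7 tested astrocyte markers kept the groups apart, and 1 had a difference below 0.

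**Figure D4:**
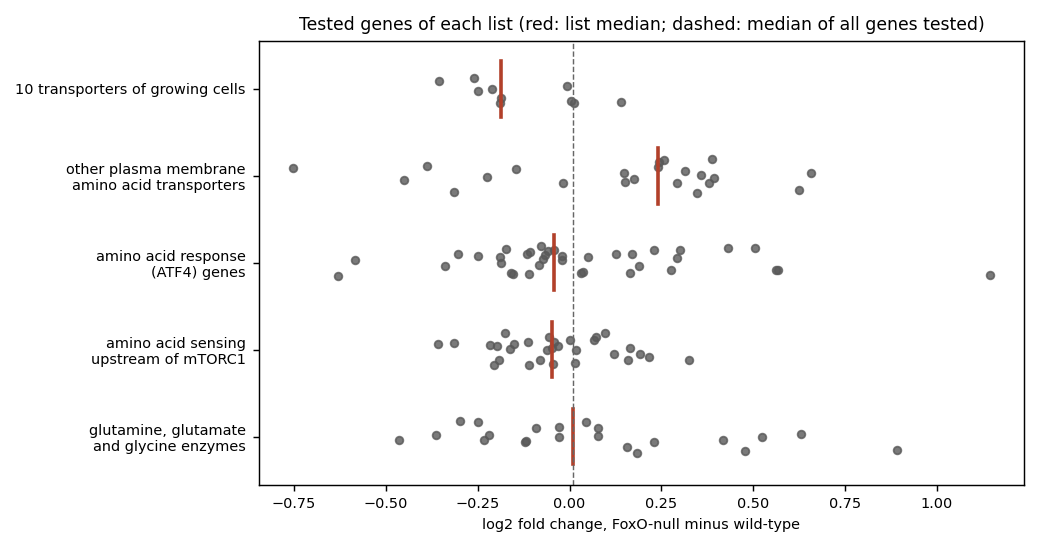
Difference on the log2 scale (x axis, FoxO-null minus wild-type) of each tested gene of the 10 transporter genes and 4 related lists, with the list median in red and the median of all genes tested dashed. The 10 genes have a median of -0.19 and the other transporters 0.24, while the remaining 3 medians lie within 0.05 of 0.

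Genes of the amino acid response were counted next. The list holds genes that ATF4 induces together with several of the transporters, Atf4 itself, and Eif2ak3 and Eif2ak4, which encode kinases upstream of it. Of 37 tested, 0 passed at the adjusted threshold, and the median log2 difference was -0.04. At an unadjusted limma p under 0.05, 3 were higher and 2 lower, against 10.2% of all genes tested in either direction. The lower ones were Mthfd2 and Eif2ak4. Mthfd2, a mitochondrial folate enzyme, read 185, 169 and 276 in lines labelled FoxO-null and 284, 334 and 348 in lines labelled wild-type, and its groups did not overlap (log2 difference -0.63 ± 0.18 SE, limma adjusted p = 0.268). Ddit4, which encodes the mTORC1 inhibitor REDD1, had a log2 difference of 0.56 ± 0.17 (SE, limma adjusted p = 0.290), with all 3 lines labelled FoxO-null above the others. Atf4 itself read 1030.1, 694 and 1269 in lines labelled FoxO-null and 713, 1126 and 1018 in lines labelled wild-type. Asns, the asparagine synthetase gene whose promoter element is shown above, read 613, 492 and 594 in lines labelled FoxO-null and 464, 655 and 666 in lines labelled wild-type. The groups overlapped for both, which were named after their values were seen.

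A further list held the machinery that senses amino acids upstream of mTORC1, along with parts of mTORC1 itself, Tsc1, Tsc2 and Rheb. Of its genes 30 were tested, 0 passed at the adjusted threshold and the median log2 difference was -0.05. At an unadjusted limma p under 0.05, 0 were higher and 1 lower, against 10.2% of all genes tested in either direction. The lower one was Sec13, a shared subunit of the GATOR2 complex, the COPII coat and the nuclear pore, with signals of 391, 442 and 452 in lines labelled FoxO-null and 540.0, 511 and 548 in lines labelled wild-type. Its log2 difference was -0.32 ± 0.11 (SE, limma adjusted p = 0.372), and that of Flcn, the folliculin gene, was -0.36 ± 0.17 (SE, limma adjusted p = 0.516).

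Enzymes that make or use glutamine, glutamate and glycine inside the cell were listed together with some enzymes of other amino acids. The latter include Odc1, which acts on ornithine, Bckdhb of branched-chain breakdown and the serine racemase gene Srr. Of the 22 tested genes of this list, 0 passed at the adjusted threshold. At an unadjusted limma p under 0.05, 3 were higher and 2 lower, against 10.2% of all genes tested in either direction, and the median log2 difference was 0.0084. The 2 lower ones were Odc1 and Bckdhb, and Srr was among the higher ones. Glul, the glutamine synthetase gene, came closest to the threshold, with signals of 798, 723 and 576 in lines labelled FoxO-null and 382, 366 and 365 in lines labelled wild-type. The groups were well apart, with a log2 difference of 0.89 ± 0.13 (SE, limma adjusted p = 0.0504). Glud1, which encodes glutamate dehydrogenase, had a log2 difference of 0.52 ± 0.12 (SE, limma adjusted p = 0.185), and its groups did not overlap either. Glul, like Slc1a3 and Slc1a2, is a gene that astrocytes express strongly, and the part of astrocyte content in its difference was not tested.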

How the data were processed

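Per the labels' protocols, 6 ug of total RNA per line gave biotinylated cRNA for an array. The authors deposited a signal intensity per probe set. MAS5 is the program that the submitters' processing notes name, without its version. The authors' scaling was kept, since array medians differed by 1.29 times, under the limit of 1.5. Of 45101 probe sets, 64 were controls and 34945 had a single gene. Each gene was read from its probe set of highest mean. Signals became log2(signal + 5.94), the 20th percentile, a scale that understates changes of low genes, and genes under the 40th percentile (signal 16.2) were left out. The groups were compared with limma 3.58.1 in R 4.3.3 (lmFit, eBayes with intensity trend, with data.table at version 1.17.8), two-sided, with no covariates and Benjamini-Hochberg adjustment over 12665 genes. Python 3.11.15 (pandas 2.3.3, matplotlib 3.10.9) read the promoters and drew the figures. Background was the highest of 27 Bacillus control probe sets on an array, and 9 bacterial and phage probe sets served as hybridisation controls. Both groups number their lines alike, and the labels do not say that a number marks a shared animal or day. The p-values measure the spread between these lines. The number of arrays limits the precision.

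The 10 genes and the lists were chosen with earlier results of these data known. All 10 were named, plus from each list the 2 genes of smallest p, and the 3 genes most like Slc3a2. Alternatives were the offset, the filter, normalization, probe set rule, trend, a replicate block and leaving out each line.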

Additional observations from a re-analysis of the deposited data

How the results depend on the processing

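The number of transporter genes past the threshold was 0 of 10, and that of their probe sets 0 of 20, under every alternative tried with limma, with at most 1 gene at an unadjusted p under 0.05. The smallest adjusted p of any of the 10 was 0.286, for Slc7a5 without wild-type line 1. Over all genes, the 5 calls became 1 with an offset of 1, with no filter, with quantile normalization and with the mean of probe sets. They became 0 with median centring (1050 at an unadjusted limma p under 0.05) and without the intensity trend (1116), and lay between 0 (without FoxO-null line 1, 820 unadjusted) and 13 (without wild-type line 3) when a line was left out. Differences near 0 changed sign. The median over all genes tested was itself -0.058 with median centring and 0.082 when scaled to the hybridisation controls. Slc1a4 was -0.064 with median centring, -0.058 with the mean of probe sets and -0.042 to 0.21 when a line was left out. Slc3a2 was -0.055 with median centring and -0.14 to 0.10 when a line was left out. Slc7a3 was 0.062 when scaled to the hybridisation controls and -0.11 to 0.12 when a line was left out. Leaving out a line gave -0.014 to 0.27 for Slc6a9 and -0.46 to 0.0064 for Slc7a5. The other 146 of 160 values of single genes under an alternative kept their direction. The r of Slc3a2 with Slc7a5 was 0.401 (exact permutation p = 0.432) after scaling to the hybridisation controls (chosen after seeing the data). Without the 2 lines farthest from the median of Slc3a2 it was 0.824 as deposited and 0.200 after that scaling; leaving out single lines was not run. Same-numbered lines had correlated deviations of 0.02, 0.09 and 0.12, and lines of different numbers -0.16 to 0.08. Each line labelled FoxO-null had its highest value with the same-numbered wild-type line, but values this small do not show that the numbers pair them. With the number as a replicate block 6 genes passed, and 0 of the 10 transporters.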

Other observations

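The glycine carrier gene Slc6a9 ran opposite to the hybridisation controls, with r = -0.941 over the 6 arrays (two-sided exact permutation p = 0.00694, adjusted p = 0.0713 over 14 relations), rho = -0.886, and r = -0.943 without FoxO-null line 3 and wild-type line 2. The sign was the same within the lines labelled FoxO-null (r = -0.983) and within those labelled wild-type (r = -0.910), at 3 lines each. After quantile normalization r was -0.971 (exact permutation p = 0.00278, adjusted p = 0.0389 over the 14 relations). The relation was chosen after the values were seen, which that adjustment does not cover. How many of all genes have as extreme a negative r with the controls was not counted.

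Slc3a2 and Atf4 had r = 0.897 over the 6 lines (two-sided exact permutation p = 0.0153, adjusted p = 0.0713 over the same 14 relations) and rho = 0.829, with r = 0.627 without FoxO-null line 2 and wild-type line 1. Slc3a2 and Asns had r = 0.901 (exact permutation p = 0.0139, adjusted p = 0.0713) and rho = 0.714, but r = 0.218 without the same lines, so that relation rested on them. The hybridisation controls had r = 0.798 with Atf4 and 0.705 with Asns, and their part in these relations was not tested. These relations were chosen after the values were seen.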
